A study of Mus musculus with 11 samples.

Results

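The genes described here are 8 genes of cholesterol synthesis and its control by the transcription factor SREBP2, namely Hmgcs1, Idi1, Fdft1, Sqle, Lss, Cyp51, Srebf2 and Insig1. They were chosen by name, as the rows of the count table whose Ensembl identifier maps to these symbols, and 8 of 8 were found among the 55513 genes of the table. None of the 8 encodes a protein of cholesterol uptake, so uptake genes were followed in a separate list. The data are RNA sequencing counts of 11 hearts, 1 library per mouse, from female C57BL/6J animals aged 8 weeks and studied at day 3. Ligation of the LAD, a coronary artery that feeds the front of the left ventricle, gave 8 mice a myocardial infarction (MI), and their samples are labelled as infarct border zone, although the study describes infarct and border zone taken as one piece. Of these mice, 4 received GI254023X (A10i, 100 mg/kg), an inhibitor of the metalloprotease ADAM10, by osmotic minipump, and 4 received its solvent DMSO. The remaining 3 mice had a sham operation and DMSO, and their tissue was healthy heart. Because sham and infarct samples differ in both the ligation and the region sampled, these cannot be told apart in a comparison with sham.

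Cells make cholesterol from acetyl-CoA through mevalonate, isoprenoids, squalene and lanosterol. SREBP2 is kept in the endoplasmic reticulum by its escort SCAP and the INSIG proteins while sterols are plentiful. When sterols fall, it is cleaved, enters the nucleus and raises transcription of the synthesis enzymes, of Insig1 and of its own gene.

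In the mm10 genome (the same assembly as GRCm38), the count table places Hmgcs1 at chr13:119690379-119708260 and Idi1 at chr13:8885501-8892451, both on the plus strand. Fdft1 lay at chr14:63145150-63179578 on the minus strand, Sqle at chr15:59315077-59331192 on the plus strand, Lss at chr10:76531588-76557138 on the plus strand and Cyp51 at chr5:4081145-4104746 on the minus strand. Srebf2 lay at chr15:82147181-82205379 and Insig1 at chr5:28071363-28078662, both on the plus strand. The end of Fdft1 shared 774 bases with Ctsb on the opposite strand and that of Cyp51 shared 166 bases with Akap9. The libraries were strand-specific, but the strand setting of the counting is not given in the sources used here.

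RefSeq promoter sequence (GRCm38.p6) was at hand for 6 of the 8 genes, all but Sqle and Fdft1. The 3 shown here are those of the regulator that differed between groups, Srebf2, of its partner Insig1, and of the first enzyme, Hmgcs1, which was not called. Each run is written 5′ to 3′ and ends before both the RefSeq start site and the start of the gene in the count table. Srebf2 is shown at chr15:82147019-82147180 on the plus strand, Insig1 at chr5:28071162-28071362 on the plus strand and Hmgcs1 at chr13:119690101-119690350 on the plus strand. Capitals mark TCACNCCAC, a form of the sterol regulatory element, and CCAAT, the letters that NF-Y recognises, on either strand.
Srebf2: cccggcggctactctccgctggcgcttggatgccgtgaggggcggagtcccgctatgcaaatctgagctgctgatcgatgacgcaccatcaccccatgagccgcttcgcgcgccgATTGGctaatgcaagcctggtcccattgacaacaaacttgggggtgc
Insig1: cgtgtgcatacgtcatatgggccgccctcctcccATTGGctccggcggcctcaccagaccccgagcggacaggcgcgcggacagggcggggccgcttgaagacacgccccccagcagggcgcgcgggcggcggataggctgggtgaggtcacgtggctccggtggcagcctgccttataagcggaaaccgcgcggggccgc
Hmgcs1: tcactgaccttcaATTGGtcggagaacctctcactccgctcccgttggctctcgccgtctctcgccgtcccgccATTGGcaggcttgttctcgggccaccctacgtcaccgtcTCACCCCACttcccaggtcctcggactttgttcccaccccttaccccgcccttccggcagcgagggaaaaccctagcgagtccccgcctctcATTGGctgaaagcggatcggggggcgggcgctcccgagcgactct

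In the 250 bases before the RefSeq start site, CCAAT was found on either strand in 6 of the 6 promoters, and in 33.8% of the 32851 promoters of the table. The GC box GGGCGG, the letters that Sp1 recognises, was also found in 6 of 6, and in 32.7% of all promoters. Some of these matches lie inside the gene as the count table places it. These include the CCAAT matches of Idi1 (45 and 14 bases before the RefSeq start) and Cyp51 (29 bases), and the GC box of Idi1 (69 bases). TCACNCCAC was found in 1 of 6, that of Hmgcs1, 137 bases before the start, and in 1.05% of all promoters. In the 6 windows, 0 matches of one motif overlapped a match of another. A match of letters is a description and not a binding site, and the absence of these letters says nothing about the factor.

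Facts of the libraries bear on every comparison with sham. Library totals lay between 21702659 and 29511782 counts, and mitochondrial genes took 21.5% to 22.2% of them in sham, 14.8% to 18.6% in DMSO and 15.7% to 17.9% in A10i libraries. Levels are given as CPM, the counts of a gene divided by its library total and brought to the same nominal total in every library, with scaling factors by the trimmed mean of M-values (TMM) over the 11 libraries, and a gene is called at an adjusted p under 0.01 by edgeR's quasi-likelihood test. Scaling by library size alone moved the median log2 fold change of all genes to 0.21 for DMSO and 0.18 for A10i against sham, so differences are relative to that choice. The summed CPM of 10 cardiomyocyte markers lay between 99672 and 102270 in sham, between 46573 and 69007 in DMSO and between 57800 and 79168 in A10i libraries. That sum leans on Myh6, with means of 38252, 16796 and 22027 CPM in sham, DMSO and A10i, and Atp2a2, with 18789, 9332 and 13523 CPM. Tnnt2 differed little, with means of 6894, 7402 and 6791 CPM. The log2 fold change against sham was below 0 for 9 of the 10 in DMSO and for 10 in A10i hearts. In bulk tissue, fewer cells of a type and less RNA per cell cannot be told apart.

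Of the synthesis genes, Sqle rose the most of the 8 after MI, with or without A10i, and Srebf2 rose with it. Sqle encodes squalene epoxidase, which makes the first oxygen-dependent step toward sterols. Its level was 0.780, 1.95 and 0.686 CPM in the sham libraries S1, S2 and S3. It was 3.08, 3.05, 3.16 and 5.22 CPM in the DMSO libraries A105, A127, A128 and A129. It was 4.64, 2.86, 2.85 and 2.79 CPM in the A10i libraries A116, A117, A119 and A120. Each infarct library lay above each sham library, and A129 and A116 stood above the others of their groups. The counts behind these levels were low, from 17 to 52 in sham and from 62 to 133 in infarct libraries. Sqle was higher in DMSO than in sham hearts by a log2 fold change of 1.65 (SE 0.38, adjusted p = 0.0078) and higher in A10i than in sham hearts by 1.52 (SE 0.36, adjusted p = 0.0095). Leaving out S1 or S3, any of the 4 DMSO libraries, or any of the A10i libraries A117, A119 and A120 took the adjusted p above 0.01, with log2 fold changes between 1.25 and 1.73, and without S2 the log2 fold changes were 2.29 and 2.16.

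Srebf2 encodes SREBP2 itself, the transcription factor of the pathway. Its level was 34.4, 30.5 and 29.3 CPM in S1, S2 and S3. It was 46.5, 45.4, 43.4 and 50.5 CPM in A105, A127, A128 and A129, and 48.0, 41.5, 40.1 and 42.5 CPM in A116, A117, A119 and A120. Sham and infarct libraries did not overlap, and A129 and A116 were again the highest of their groups. The log2 fold change was 0.56 for DMSO against sham (SE 0.088, adjusted p = 0.0012) and 0.46 for A10i against sham (SE 0.085, adjusted p = 0.0024). Without S2 or S3 the call was lost in both comparisons, with log2 fold changes between 0.41 and 0.54 and adjusted p-values of 0.0104 and 0.0105 for DMSO and of 0.016 and 0.017 for A10i. Srebf2 contains the microRNA gene Mir33 on the same strand. Mir33 had 0 counts in every library, which does not measure the microRNA, because poly(A) RNA was sequenced.

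Fdft1 moved the other way. It encodes squalene synthase, which joins a pair of farnesyl diphosphates and so makes the substrate of Sqle. Its level was 39.3, 41.6 and 41.0 CPM in S1, S2 and S3. It was 24.8, 29.6, 45.2 and 25.6 CPM in A105, A127, A128 and A129, and 20.1, 24.9, 29.4 and 26.1 CPM in A116, A117, A119 and A120. All 4 A10i libraries lay below the sham libraries, whereas among the DMSO libraries A128 lay above them. Fdft1 was lower in A10i than in sham hearts by a log2 fold change of -0.69 (SE 0.11, adjusted p = 0.0012), a call that was lost in 1 fit of all 11 libraries (adjusted p = 0.017). Between DMSO and sham hearts the log2 fold change was -0.38 (SE 0.19, adjusted p = 0.15), and without A128 it was -0.61 (adjusted p = 0.0011). Ctsb, which overlaps the end of Fdft1, encodes the lysosomal protease cathepsin B and lay between 439 and 470 CPM in sham, between 635 and 957 in DMSO and between 758 and 1193 CPM in A10i libraries. Its log2 fold changes were 0.74 (adjusted p = 0.0047) and 0.99 (adjusted p = 0.00099), and its part in the Fdft1 counts was not tested.

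**Figure D1:**
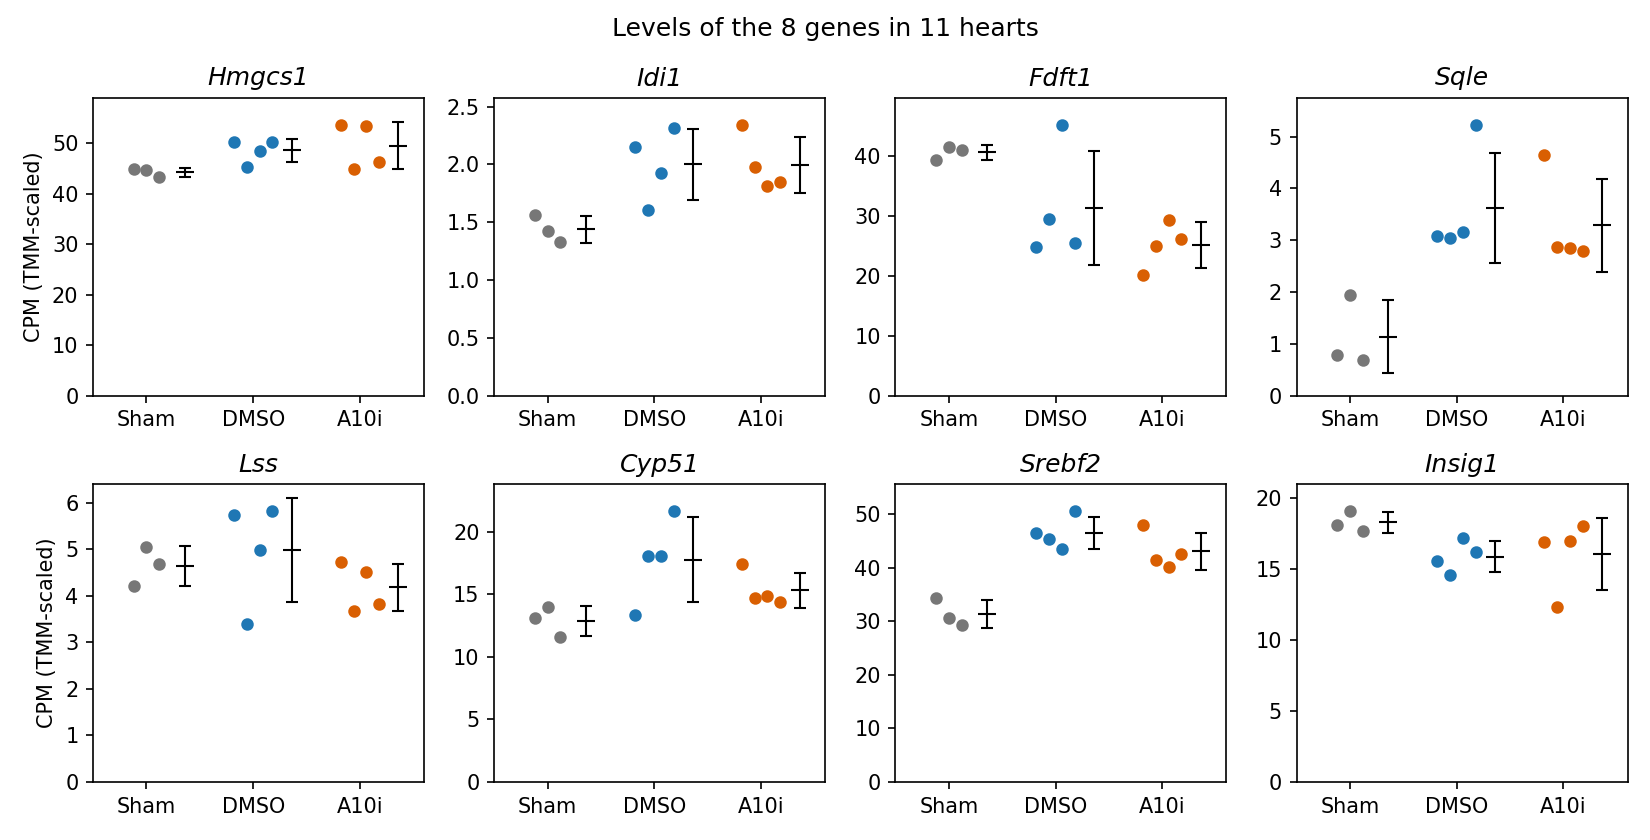
Level of each of the 8 genes in the 11 libraries, in TMM-scaled CPM on an axis from 0, with 1 point per mouse and, beside the points, the mean and SD of each group (3 Sham, 4 DMSO, 4 A10i). Sqle and Srebf2 lie higher in all infarct libraries than in sham, and Fdft1 lies lower in all but the DMSO library A128.

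The enzymes at the start of the pathway did not pass the test against sham in either infarct group. Hmgcs1 encodes the cytosolic HMG-CoA synthase, which makes HMG-CoA. Its level was 44.9, 44.8 and 43.3 CPM in sham, 50.2, 45.3, 48.5 and 50.4 CPM in DMSO and 53.6, 44.9, 53.4 and 46.3 CPM in A10i libraries. The log2 fold change was 0.13 for DMSO against sham (95% interval -0.031 to 0.29, adjusted p = 0.17) and 0.16 for A10i against sham (-0.011 to 0.34, adjusted p = 0.12). The DMSO libraries lay above the sham libraries, whereas the A10i library A117 lay within their range.

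Idi1 encodes isopentenyl-diphosphate isomerase, which interconverts the isoprenoid building blocks. Its level was 1.56, 1.42 and 1.33 CPM in sham, 2.15, 1.61, 1.93 and 2.32 CPM in DMSO and 2.34, 1.97, 1.82 and 1.84 CPM in A10i libraries. All infarct libraries lay above sham. The log2 fold changes of 0.47 for DMSO (SE 0.21, adjusted p = 0.10) and 0.48 for A10i (SE 0.19, adjusted p = 0.074) did not pass the test at 33 to 59 counts per library.

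After squalene epoxidase, Lss closes the sterol rings as lanosterol synthase. Its level was 4.20, 5.05 and 4.68 CPM in sham, 5.74, 3.39, 4.99 and 5.81 CPM in DMSO and 4.72, 3.68, 4.50 and 3.82 CPM in A10i libraries. The groups overlapped, with log2 fold changes of 0.094 for DMSO (95% interval -0.36 to 0.55) and -0.15 for A10i (-0.48 to 0.18), and the latter was 0.041 when scaled by library size alone.

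Cyp51 encodes lanosterol demethylase, the next enzyme. Its level was 13.1, 14.0 and 11.6 CPM in sham, 13.3, 18.0, 18.1 and 21.6 CPM in DMSO and 17.4, 14.7, 14.9 and 14.4 CPM in A10i libraries. Only the DMSO library A105 fell within the sham range. The log2 fold change was 0.46 for DMSO (SE 0.15, adjusted p = 0.038) and 0.26 for A10i (SE 0.10, adjusted p = 0.071), and without A105 that of DMSO was 0.56 (adjusted p = 0.0060). Akap9, whose end overlaps Cyp51, had log2 fold changes of -0.24 (adjusted p = 0.065) and -0.28 (adjusted p = 0.012).

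Insig1 encodes the membrane protein that holds SCAP and SREBP2 back when sterols are plentiful. Its level was 18.2, 19.1 and 17.7 CPM in sham, 15.6, 14.6, 17.2 and 16.2 CPM in DMSO and 16.9, 12.3, 17.0 and 18.0 CPM in A10i libraries. All DMSO libraries lay below sham, and A10i and sham libraries overlapped. The log2 fold changes were -0.21 for DMSO (SE 0.091, adjusted p = 0.097) and -0.18 for A10i (SE 0.12, adjusted p = 0.26), and with scaling by library size alone they were 0.00039 and 0.0055.

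Of the 8 genes, 2 were called higher and 0 lower between DMSO and sham hearts, where 12.9% of the 17119 genes tested were called higher and 9.6% lower. By an unadjusted p under 0.05, 3 of the 8 were higher and 1 was lower, beside 25.9% and 23.4% of all genes. In 4 of the 8 all DMSO libraries lay above sham and in 1 below, beside 25.1% and 23.6% of all genes. Between A10i and sham hearts, 2 of the 8 were called higher and 1 lower, where 13.8% of 17004 genes were called higher and 9.09% lower. By an unadjusted p under 0.05, 4 of the 8 were higher and 1 was lower, beside 25.5% and 22.8% of all genes. In 4 of the 8 all A10i libraries lay above sham and in 1 below, beside 24.7% and 23.5% of all genes. The median log2 fold change of the 8 was 0.30 for DMSO and 0.21 for A10i against sham, and that of all genes tested was 0.0021 and -0.0056. Both comparisons share the sham libraries.

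**Figure D2:**
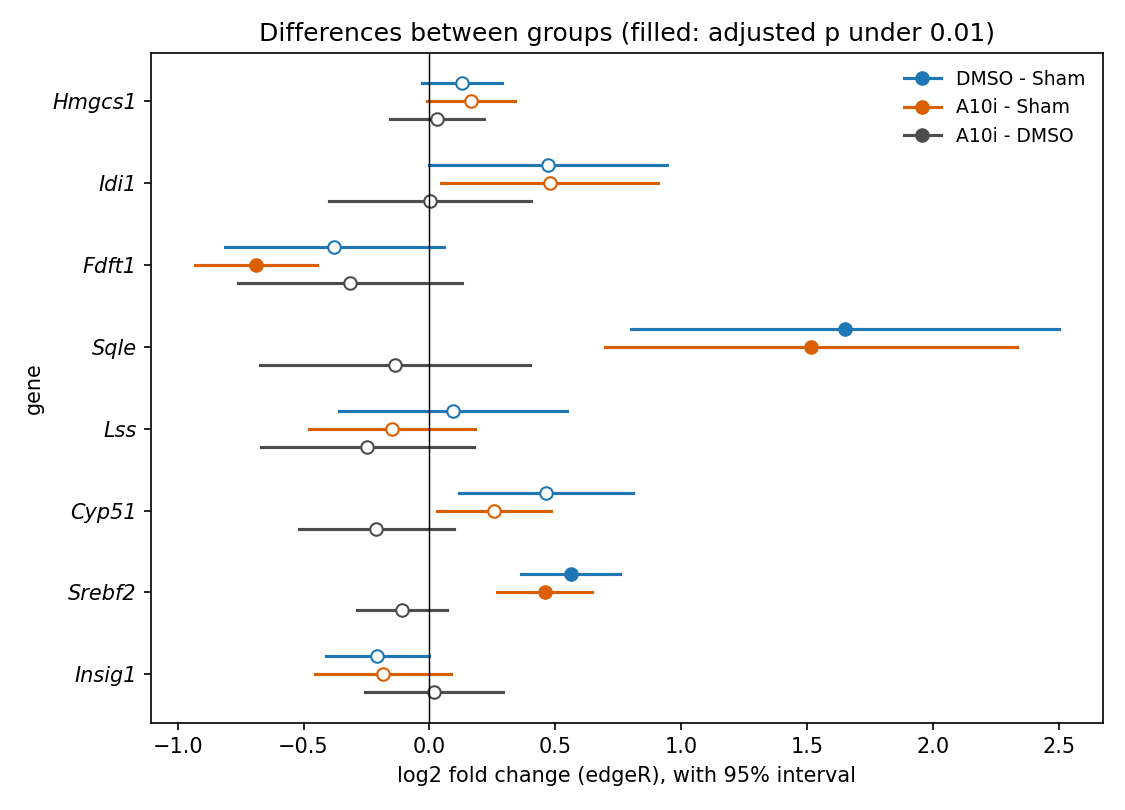
Log2 fold change of each of the 8 genes by edgeR (horizontal axis) with its 95% interval, for DMSO minus Sham, A10i minus Sham and A10i minus DMSO, and filled points mark an adjusted p under 0.01. The intervals of Sqle and Srebf2 lie above 0 against sham in both infarct groups, and all 8 intervals of A10i against DMSO hold 0.

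The comparison of A10i with DMSO hearts asks whether inhibition of ADAM10 changed these genes in the infarct. No member was called, with 0 higher and 0 lower of 8 by edgeR, where 0% of the 16793 genes tested were called higher and 0% lower. None of the 8 passed an unadjusted p under 0.05, beside 7.1% of all genes higher and 6.73% lower. In 0 of the 8 did the groups not overlap, beside 4.01% of all genes with A10i above and 4.11% with A10i below DMSO. DESeq2 called 0 of the 8, beside 0.573% of 18161 genes higher and 0.677% lower, and limma-voom called 0 of the 8, beside 0% and 0% of all genes.

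The size of the differences that these data allow was set by the spread of the infarct libraries. The largest log2 fold change of A10i against DMSO among the 8 was that of Fdft1, -0.32 (95% interval -0.76 to 0.13, adjusted p = 0.53), and it was -0.079 without A128. That of Sqle was -0.14 (-0.67 to 0.40), that of Lss -0.25 (-0.67 to 0.18), that of Cyp51 -0.21 (-0.52 to 0.097) and that of Srebf2 -0.11 (-0.29 to 0.071). That of Sqle was 0.088 without A129 and -0.35 without A116, and those of Hmgcs1, Idi1 and Insig1 also changed sign when single libraries were left out. The narrowest interval was that of Srebf2, whose data allow a fall of up to 0.29 or a rise of up to 0.071 on the log2 scale. The intervals were -0.15 to 0.22 for Hmgcs1, -0.40 to 0.40 for Idi1 and -0.26 to 0.29 for Insig1. The median over the 8 was -0.12 and that of all genes 0.0034.

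Ratios of a pair of members within a library do not depend on the scaling between libraries, and these pairs were chosen after their values were seen, so they carry no test. Sqle had 1.98, 4.68 and 1.67 counts per 100 counts of Fdft1 in S1, S2 and S3. It had 12.4, 10.3, 7.00 and 20.4 in A105, A127, A128 and A129, and 23.1, 11.5, 9.69 and 10.7 in A116, A117, A119 and A120. Every infarct library lay above every sham library, and the DMSO and A10i libraries overlapped, with means of 12.5 ± 5.71 (SD, n = 4) and 13.7 ± 6.30 (SD, n = 4). Srebf2 had 160.0 to 189 counts per 100 counts of Insig1 in sham, 252 to 312 in DMSO and 235 to 336 in A10i libraries. Here too sham and infarct libraries did not overlap, while both infarct groups did.

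**Figure D3:**
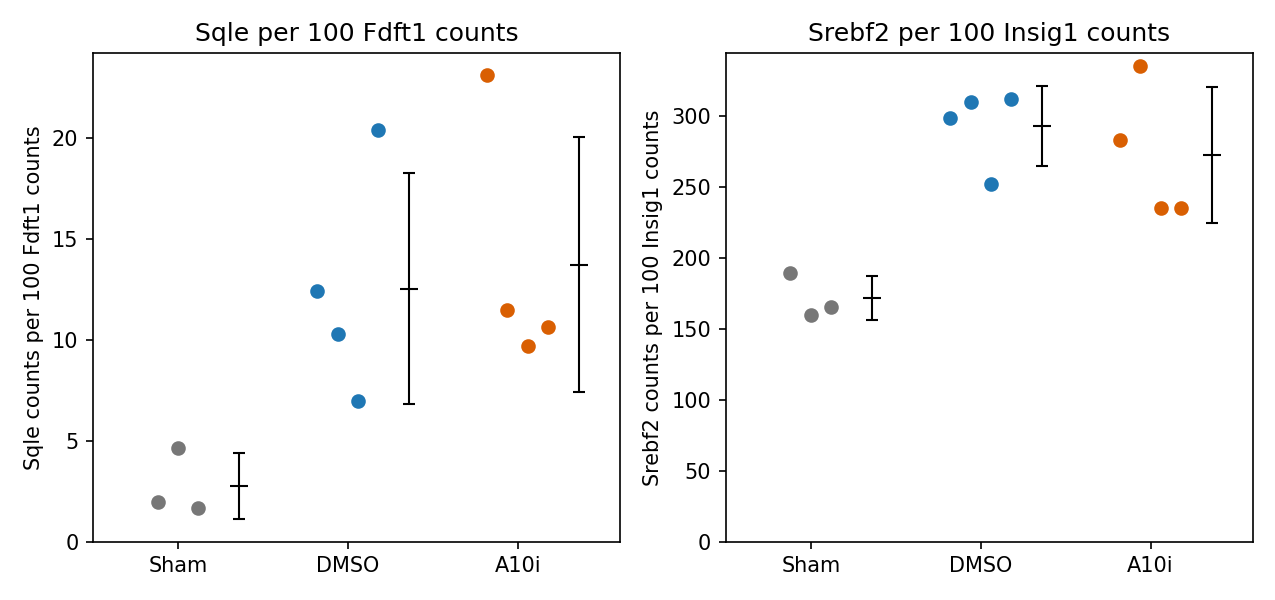
Counts of Sqle per 100 counts of Fdft1 (left) and of Srebf2 per 100 counts of Insig1 (right) in each library, on axes from 0, with the mean and SD of each group beside the points. Sqle lies between 1.67 and 4.68 in sham and between 7.00 and 23.1 in infarct libraries.

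The order of the 8 genes was compared as CPM per kilobase of annotated exon sequence. That length, 10787 bases for Lss and 3505 for Idi1, need not be the length of the transcripts present, and the order depends on it. In sham hearts Fdft1 was at 9.87 ± 0.29 and Hmgcs1 at 9.65 ± 0.20 (SD, n = 3), a difference within their spread. They were followed by Insig1 at 5.92 ± 0.23, Srebf2 at 4.37 ± 0.37 and Cyp51 at 2.92 ± 0.27 CPM per kilobase, each apart from its neighbours by more than the SDs. Lss at 0.43 ± 0.039 and Idi1 at 0.41 ± 0.033 did not differ beyond their spread, and Sqle was the lowest at 0.21 ± 0.13 CPM per kilobase. Without division by length, Lss stood above Idi1 in sham, with means of 4.64 and 1.44 CPM. In DMSO hearts Hmgcs1 led at 10.6 ± 0.51 CPM per kilobase, Srebf2 at 6.47 ± 0.42 stood above Insig1 at 5.14 ± 0.35, and Sqle at 0.65 ± 0.19 stood beside Idi1 at 0.57 ± 0.087 and Lss at 0.46 ± 0.10. In A10i hearts the order was the same as in DMSO hearts, with Fdft1 at 6.11 ± 0.94 and Srebf2 at 5.99 ± 0.49 CPM per kilobase within their spread of each other.

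After taking off group means, log2 CPM correlated positively over the 11 libraries in 22 of the 28 pairs of members, with a median Pearson r of 0.27 and a range from -0.70 (Fdft1 with Srebf2) to 0.77 (Idi1 with Srebf2). That is 78.6% of the member pairs, beside 49.9% of all pairs of 17499 genes, whose median r was -0.0009. The r of Fdft1 with the mean of the other members was -0.36, and that of the other 7 lay between 0.41 (Srebf2) and 0.69 (Hmgcs1). These libraries share depth and tissue makeup, and the correlations are a description over 11 points. By the same measure the 5 genes outside the 8 that were most like their mean profile, out of 17499, were Ddx52 (r = 0.95), Asns, the asparagine synthetase (0.95), Fut8, a fucosyltransferase (0.94), Prr5l (0.94) and Gm11652 (0.94). Among lipid genes Acly, which supplies acetyl-CoA for synthesis, had an r of 0.87.

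The libraries A129 and A116, with the highest Sqle and Srebf2 of their groups, were also the highest of their groups in the summed macrophage, fibroblast, cycling cell, neutrophil and atrial markers. The atrial sum is mostly Nppa, whose means are given below. In adipocyte markers A105 and A117 were the highest instead, and in endothelial markers A129 and A119. The summed CPM of 10 macrophage markers was 924 in A129, beside 526 to 800.0 in the other DMSO libraries, and 1353 in A116, beside 708 to 892 in the other A10i libraries. That of 10 fibroblast markers was 6471 in A129, beside 1964 to 4753, and 9013 in A116, beside 4897 to 5709. That of 10 cycling cell genes was 217 in A129, beside 25.1 to 154, and 293 in A116, beside 135 to 166. The summed cardiomyocyte markers were lowest of their groups in both, at 46573 and 57800. No marker of the macrophage, fibroblast, cycling cell and cardiomyocyte lists was at 0 in any library, and the part of these cells in the levels of Sqle and Srebf2 was not tested.

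Over the groups, macrophage markers summed to 329 to 358 CPM in sham, 526 to 924 in DMSO and 708 to 1353 in A10i libraries, with 7 and 9 of 10 called higher against sham. Fibroblast markers summed to 1209 to 1291, 1964 to 6471 and 4897 to 9013 CPM, with 4 of 10 (Col1a1, Col1a2, Col3a1 and Postn) and 8 of 10 called higher. Neutrophil markers summed to 1.12 to 2.21, 68.9 to 126 and 13.8 to 48.0 CPM, with 2 to 4 of the 10 at 0 in each sham library and 4 of the 10 under the filter, which the others passed through the infarct libraries. Cycling cell genes summed to 66.8 to 102, 25.1 to 217 and 135 to 293 CPM, with 1 (Cenpf) called lower in DMSO and 9 of 10 called higher in A10i hearts. Of the cardiomyocyte markers, 5 of 10 (Myh6, Myl2, Ryr2, Pln and Atp2a2) and 3 of 10 (Myh6, Myl2 and Ttn) were called lower. Endothelial markers summed to 1290 to 1344, 1136 to 1296 and 1299 to 1423 CPM, with Kdr and Tie1 lower in DMSO and Tie1 in A10i hearts. Atrial markers summed to 104.9 to 227.5, 475 to 1673 and 519 to 971 CPM, with Nppa called higher in DMSO and Nppa and Myl4 in A10i hearts. Most of that sum was Nppa, with means of 149, 1039 and 718 CPM, whereas Myl4 reached a mean of 36.8 CPM in A10i hearts. The study treats NPPA as a marker of heart failure, so the sum need not reflect atrial tissue. Adipocyte markers summed to 1.80 to 7.14, 2.46 to 7.38 and 7.02 to 25.7 CPM with none called (0 and 5 of the 6 at an unadjusted p under 0.05). Between A10i and DMSO hearts edgeR called 0 genes of these 8 marker lists. At an unadjusted p under 0.05, 6 of the 10 neutrophil markers were lower with A10i and 4 were under the filter, while 4 of 10 macrophage, 2 of 10 fibroblast, 2 of 10 endothelial, 2 of 6 adipocyte, 1 of 10 cycling cell and 1 of 10 cardiomyocyte markers were higher and 0 of 5 atrial markers passed. At that threshold 7.1% of all genes were higher and 6.73% lower with A10i. Against sham, 12.9% of all genes were called higher and 9.6% lower in DMSO hearts. In A10i hearts these shares were 13.8% and 9.09%. These marker genes are named after their values were seen, and the part of these cells in the differences from sham was not tested.

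The other enzymes of cholesterol synthesis were called in both directions. Of 15 tested, 2 were called higher and 1 lower between DMSO and sham hearts, beside 12.9% and 9.6% of all genes. Sc5d, a late desaturase, fell from 24.9 ± 0.57 CPM in sham (SD, n = 3) to 17.9 ± 0.82 CPM in DMSO hearts (SD, n = 4), a log2 fold change of -0.48 (adjusted p = 0.0017). Between A10i and sham hearts 1 of the 15 was called higher and 1 lower, Sc5d (-0.41, adjusted p = 0.0018), beside 13.8% and 9.09% of all genes. The median of the 15 was 0.029 for DMSO and -0.030 for A10i against sham. Of the 10 other genes that control SREBP and were tested (Scap, Insig2 and Srebf1 among them), 0 were called against sham by edgeR in either infarct group, with 2 higher and 1 lower in DMSO and 3 higher and 1 lower in A10i hearts at an unadjusted p under 0.05, where the shares of all genes were those given above for the 8 members.

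Genes of cholesterol uptake and lysosomal transport changed in both directions. Of 13 tested, 3 were called higher and 4 lower between DMSO and sham hearts, beside 12.9% and 9.6% of all genes. Mylip, a ubiquitin ligase, fell from 36.1 ± 4.73 to 16.3 ± 2.64 CPM (log2 fold change -1.16, adjusted p = 0.00035). Msr1, a macrophage scavenger receptor, rose from 3.76 ± 0.35 to 30.7 ± 11.1 CPM (3.02, adjusted p = 0.00019). Vldlr, the receptor of very low density lipoprotein, fell from 441 ± 30.7 to 232 ± 29.0 CPM (-0.93, adjusted p = 0.00043). Also called were Lrp1, higher by 0.67, Stard3, a sterol carrier of late endosomes, at -0.66, and Scarb1, a receptor of high density lipoprotein, at -0.47 on the log2 scale. Between A10i and sham hearts 4 were called higher, among them Lrp1 (0.68), Msr1 (2.56) and Npc2, a lysosomal sterol carrier (0.78), and 2 lower, Vldlr (-0.71) and Stard3 (-0.41). Of all genes, 13.8% were called higher and 9.09% lower in that comparison. Mylip had -0.52 there (adjusted p = 0.015).

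Among genes of efflux and storage, Soat1, which esterifies cholesterol, rose from 6.76 ± 0.32 CPM in sham to 25.8 ± 11.1 in DMSO and 26.1 ± 9.80 CPM in A10i hearts, with log2 fold changes of 1.93 (adjusted p = 0.0018) and 1.95 (adjusted p = 0.00097). Ch25h, which makes the oxysterol 25-hydroxycholesterol, rose from 0.44 ± 0.22 to 8.06 ± 2.03 and 3.61 ± 1.40 CPM (4.17, adjusted p = 7.2e-05, and 3.02, adjusted p = 0.00068). Of 11 tested, 2 were called higher and 1 lower, Pltp at -0.70, in DMSO hearts, and 4 higher and 0 lower in A10i hearts, with Apoe (1.05) and Abcg1 (0.78) beside Soat1 and Ch25h. Of 13 fatty acid genes under SREBP1, 2 were called higher and 1 lower in each infarct group. Of all genes, 12.9% were called higher and 9.6% lower in DMSO against sham hearts. In A10i against sham hearts these shares were 13.8% and 9.09%. Elovl6, an elongase, had log2 fold changes of 1.36 and 1.18, and Fads1, a desaturase, had 0.59 and 0.73. The gene called lower was Gpam in DMSO (-0.44) and Acss2 in A10i hearts (-0.37).

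Between A10i and DMSO hearts, edgeR and limma-voom called 0 of the 62 tested genes of these 5 lists in either direction. By an unadjusted p under 0.05, 6 were higher and 2 lower with A10i, beside 7.1% and 6.73% of all genes. DESeq2 called 3, beside 0.573% of 18161 genes called higher and 0.677% lower. The 3 are named after their values were seen. These were Apoe (log2 fold change 0.88, adjusted p = 0.0051) and Pltp (0.53, adjusted p = 0.0072), higher with A10i, and Ch25h (-1.16, adjusted p = 0.0057), lower with A10i. By edgeR their adjusted p-values were 0.13, 0.10 and 0.13.

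**Figure D4:**
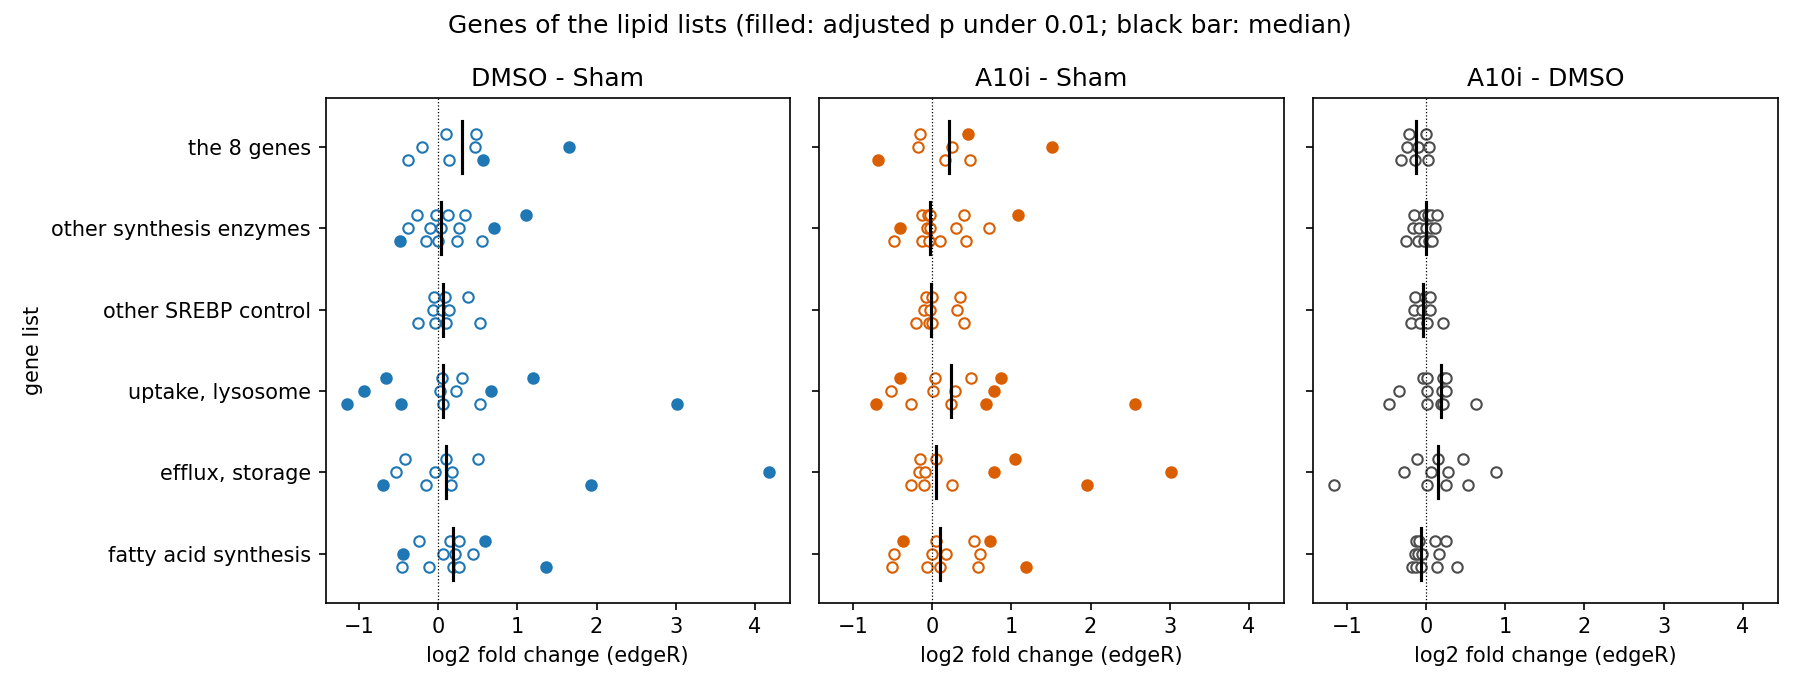
Log2 fold change by edgeR (horizontal axis) of every tested gene of the 8 genes and of the 5 other lipid lists (rows), in the 3 comparisons (panels). Filled points mark an adjusted p under 0.01 and black bars the median of each row, which lies between 0.029 and 0.30 in the DMSO panel, while the A10i minus DMSO panel holds no filled point.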

How the data were processed

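Poly(A) RNA was sequenced as strand-specific read pairs. The submitters' processing notes name GSNAP (mm10) and featureCounts 2.0.1 with Ensembl annotation. The values deposited by the authors are whole-number counts of uniquely aligned reads for 55513 genes, not scaled. Symbols were found for 55154 identifiers in GENCODE M21.

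The counts were tested in R 4.3.3 with edgeR 4.0.16 (filterByExpr, TMM, robust quasi-likelihood, two-sided). A comparison was fitted to its own groups only, with Benjamini-Hochberg adjustment over all genes tested and the threshold of 0.01 that the study used. The study applied that threshold with other tools, DESeq2 and the package IHW. It reported genes both higher and lower with A10i against DMSO, where the edgeR fit here called 0% of all genes. SEs are the log2 fold change over the root of F, and 95% intervals use the t quantile of the fit's degrees of freedom. Alternatives were DESeq2 1.42.0, limma-voom (limma 3.58.1), RLE scaling, scaling by library size alone, no filter, at least 10 counts in every library, a joint fit of the 11 libraries, a second threshold of 0.05, and leaving out each library. Leaving out A129 and A116 together was added after seeing the data. Log2 CPM for correlations had a prior count of 2.

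The members and gene lists were chosen with earlier results of these data known. The lists hold 15 other synthesis enzymes, 11 other SREBP control genes (Spring1 matched no symbol), 14 uptake and lysosome genes, 12 efflux and storage genes (Apoc1 was under the filter), 13 SREBP1 genes, and 8 lists of cell markers. Named were the 8 members, up to 5 called genes per lipid list and comparison with the smallest adjusted p, and the 5 genes most like the members' profile. Some genes that this rule names are not reported here. Each library is a mouse of its own. In 15 pairs of replicates the chi-square over its degrees of freedom lay between 4.04 and 60.8, above counting error. Totals of 21702659 to 29511782 counts leave Sqle at 17 to 133 and Idi1 at 33 to 59 counts per library. In simulated counts for DMSO against sham, edgeR found 182 of 200 altered genes and made 3 false calls over 16844 genes. It found 115 of the 116 altered by 4-fold and 67 of the 84 altered by 2-fold. Smaller changes were not simulated, and all members but Sqle differed from sham by less than 2-fold.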

Additional observations from a re-analysis of the deposited data

Results flagged for a closer look

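Dixon's ratio, the gap of an extreme sample to its neighbour over the range of its group, was computed on log2 CPM for the 8 genes in the DMSO and A10i groups of 4. It passed the 95% critical value for 4 samples in 3 of 16 groups, and chance flags about 1 in 20. Sqle in the DMSO library A129 stood above the other 3, at 5.22 CPM beside 3.05 to 3.16 CPM, with a ratio of 0.935. Sqle in the A10i library A116 also stood above the other 3, at 4.64 CPM beside 2.79 to 2.86 CPM, with a ratio of 0.949. Insig1 in the A10i library A117 stood below the other 3, at 12.3 CPM beside 16.9 to 18.0 CPM, with a ratio of 0.833.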

How the results depend on the processing

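The calls among the 8 genes against sham depended on single libraries. Leaving out 1 library at a time gave 0 to 2 members called higher and 0 to 1 lower for DMSO against sham, and 0 to 2 higher for A10i against sham; without S3 the count called higher was 0 in both. Of other lipid genes, 9 higher and 7 lower for DMSO became 3 to 10 and 3 to 9, and 11 higher and 4 lower for A10i became 4 to 15 and 1 to 6; without S1, S2 or S3 the counts called higher were 4, 3 and 3 for DMSO and 4, 6 and 6 for A10i, and 1 was lower for A10i. In 1 fit of all 11 libraries 0 members were lower with A10i against sham. Scaling by library size alone left 2 other lipid genes lower for DMSO, and 17 higher and 1 lower for A10i. A threshold of 0.05 gave 14 higher and 11 lower for DMSO, and 19 and 10 for A10i. DESeq2 called 8 lower for A10i, and no filter on low counts gave 7. For A10i against DMSO, DESeq2 called 2 other lipid genes higher and 1 lower, beside 0.573% and 0.677% of 18161 genes. For the comparisons with sham, the shares of all genes called under these alternatives are not given here. With scaling by library size alone, the median log2 fold change of all genes was 0.21 for DMSO and 0.18 for A10i against sham. These counts therefore cannot show whether the shifts are particular to the lipid genes. The cause of these shifts was not tested.

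No member changed direction with a call in any alternative. For A10i against DMSO the members stayed uncalled in all alternatives run. These include the fit without A129 and A116 together, added after seeing the data. The main fit and limma-voom called 0% of all genes there, and the lowest adjusted p of any gene in the main fit was 0.048. Under those settings, staying uncalled says nothing particular about the members. No paired analysis was possible because the groups share no replicate numbers.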
